A study of Apis mellifera with 12 samples.

Results

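The 94 genes described here are those of the honey bee (Apis mellifera) worker antenna whose listed splice events are of 3 kinds only: a retained intron, an alternative acceptor site or an alternative donor site. They were found by taking the gene names of the 3 corresponding tables, 103 genes, and leaving out the 9 that also appear in the tables of skipped or mutually exclusive exons, among them Syx1A, which was also left out by name. The 94 genes carry 104 of the 491 events in the 5 splicing tables, and all 94 are among the 12319 genes of the count table. Antennal RNA was sequenced in 12 libraries, 3 each from defenders, foragers (which gather nectar and pollen), nurses (which feed the brood) and newly emerged workers. The title of the series sets the comparison among workers that divide labour. The sources used here give no strain, age, colony or pool size for any library, nor how defenders were recognised, so task and age cannot be told apart.

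An intron is removed between a donor site at its 5′ end and an acceptor site at its 3′ end. A cell can leave a whole intron in the transcript, or choose among neighbouring donors or acceptors and so make an exon longer or shorter. A retained intron often carries a stop codon or keeps the RNA in the nucleus, whereas a shift between nearby sites can add or remove a few amino acids, or change the reading frame. The measure is the inclusion level, a fraction between 0 and 1. For a retained intron it is the share of transcripts that keep the intron, and for an alternative acceptor or donor it is the share that carry the longer exon.

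Of the 104 events, 25 were retained introns in 25 genes, 38 were alternative acceptors in 35 genes and 41 were alternative donors in 36 genes. A single event was listed for 85 genes and more than 1 for 9 genes, at most 3. Events of both an intron and a splice site were listed for 2 genes, LOC100578368 and LOC410363. The NCBI gene list of the Amel_HAv3.1 assembly gives 84 of the genes as protein-coding and 10 as long noncoding RNAs. Those with a symbol include Dnmt1a, Burs, TpnCIIb and nanos, and 89 genes have a LOC identifier, for which no product description was used here.

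The retained introns were short, with a median of 97 bases (60 to 1484), and 13 of the 25 were under 100 bases. The stretch added by the longer exon had a median of 46.5 bases at acceptors (3 to 1911) and 45.0 bases at donors (4 to 532). It was a multiple of 3 bases, which keeps the reading frame where the stretch is translated, at 20 of 38 acceptors and 17 of 41 donors. Of the retained introns, 9 of 25 had such a length. Whether a stretch lies in a coding region was not looked up, as no annotation of exons was used.

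The antenna markers checked were present in every library. Summed over the odorant receptors Or2 and Or11 and the odorant binding proteins Obp1 and Obp2, their level was 30900 to 34400 CPM (counts scaled to library size) in defenders, 32300 to 44600 in foragers, 33500 to 35700 in nurses and 16900 to 20400 in newly emerged workers. The 3 hypopharyngeal gland markers (Mrjp1, Mrjp3 and Hbg3) summed to 232 to 256, 393 to 421, 308 to 1910 and 22.4 to 26.4 CPM in the groups in that order, and no marker was at 0 in any library. Library totals ran from 66708813 to 119703929 counts. In tissue RNA, fewer cells of a type and less RNA per cell cannot be told apart, and their part in the results below was not tested.

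A limit of the splicing tables applies to every value below. All 491 events had a difference of at least 0.2 between their highest and lowest group mean (lowest 0.201, and 0.202 among the 104 events of these genes), so they look chosen for differing between these libraries. The sources used here give no rule for that choice. Tests of inclusion are therefore a description of these events and no independent sign that splicing differed, and the files give no read number behind an inclusion level. The p-values measure the spread between libraries, which may be technical, since the labels do not say whether the 3 libraries of a group came from separate bees.

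Newly emerged workers stood at one end in nearly every event. Their mean was the highest or the lowest of the 4 group means in 100 of 104 events (96.2%), against 452 of all 491 events (92.1%). Of the retained introns 18 of 25 (72.0%) were most retained in newly emerged workers and 5 were least retained there. The acceptors split evenly, 19 highest and 19 lowest, and the donors nearly so, 20 highest and 19 lowest of 41. Over all events of the tables the newly emerged mean was highest in 45.4% and lowest in 46.6%. Leaving out any single library gave 18 or 19 retained introns highest in newly emerged workers; whether this differs from the acceptors and donors was not tested.

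**Figure D1:**
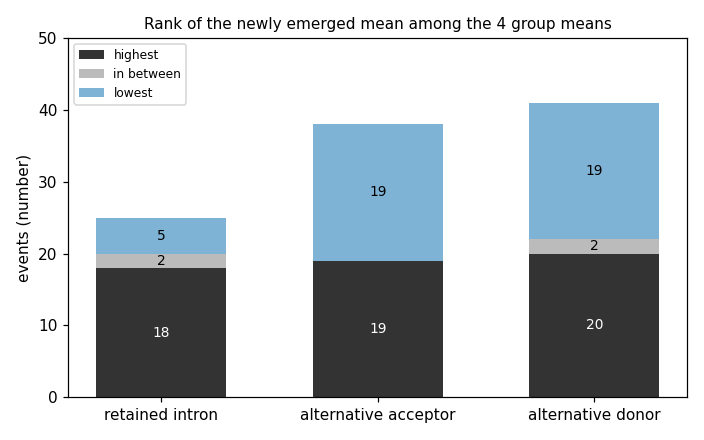
Number of events (y axis) of each kind in which the newly emerged group mean was the highest, the lowest or between the others. Retained introns lean to highest (18 of 25), while acceptors (19 and 19) and donors (20 and 19) are split.

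Across the retained introns, the median over events of the group mean was 0.521 in defenders, 0.532 in foragers, 0.514 in nurses and 0.708 in newly emerged workers. For acceptors the same medians were 0.622, 0.639, 0.632 and 0.62, and for donors 0.516, 0.493, 0.512 and 0.562, in the same order. The medians of defenders, foragers and nurses thus lay close together in all 3 kinds, and the newly emerged one was far from them for introns. Among introns under 100 bases 11 of 13 were most retained in newly emerged workers, among those of 100 to 200 bases 5 of 7, and among longer ones 2 of 5. These bins are small, and a dependence on length was not tested. All 3 newly emerged libraries lay above all 9 others in 12 introns and below them in 3. That pattern was found above in 23.4% and below in 24.8% of all events in the tables.

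The 3 comparisons with newly emerged workers share the same newly emerged libraries. At an adjusted p under 0.05 in limma (Benjamini-Hochberg over all 491 events), 71 of the 104 events passed in defenders against newly emerged workers, 28 with higher and 43 with lower inclusion in defenders, beside 72.3% of all events (34.0% higher and 38.3% lower). In foragers against newly emerged workers 67 passed, 30 higher and 37 lower, beside 74.7% of all events (37.5% and 37.3%). In nurses against newly emerged workers 63 passed, 26 higher and 37 lower, beside 65.6% (35.4% and 30.1%). These shares lie near the background of the tables. The libraries of the groups did not overlap in 75% of the 104 events for defenders, 70.2% for foragers and 62.5% for nurses against newly emerged workers, beside 78.0%, 72.7% and 67.8% of all events. For the 25 introns the split was 3 higher and 14 lower in defenders, 3 and 13 in foragers, and 2 and 12 in nurses. The median difference of the introns from newly emerged workers was -0.181 in defenders, -0.166 in foragers and -0.173 in nurses, beside 0.00367, 0.012 and 0.034 over all events. When all 4 groups were tested together, 75 of the 104 events passed, beside 80.4% of all events, and 9 passed in neither this test nor any pair.

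A 65-base intron of LOC410603 was retained at 0.173, 0.196 and 0.152 in defenders, 0.058, 0.131 and 0.134 in foragers, 0.1, 0.159 and 0.172 in nurses, and 0.301, 0.343 and 0.324 in newly emerged workers. All 3 newly emerged libraries lay above the 9 others. The difference was -0.149 ± 0.0377 (SE, adjusted p = 0.00593, limma) in defenders, -0.215 (adjusted p = 0.000803) in foragers and -0.179 (adjusted p = 0.00258) in nurses. The level of the gene was higher where the intron was less retained: LOC410603 averaged 15.1 ± 1.70 CPM in defenders, 15.4 ± 1.20 in foragers, 14.0 ± 1.95 in nurses and 9.59 ± 0.779 in newly emerged workers (SD, n = 3 each), with log2 fold changes of 0.66, 0.68 and 0.55 and edgeR adjusted p = 0.00159, 0.000988 and 0.00525.

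A 63-base intron of LOC411879 was retained at 0.412, 0.491 and 0.48 in defenders, 0.452, 0.492 and 0.315 in foragers, 0.365, 0.386 and 0.491 in nurses, and 0.704, 0.744 and 0.73 in newly emerged workers. No library of the other groups reached the newly emerged ones. The differences from newly emerged workers were -0.265 in defenders, -0.306 in foragers and -0.312 in nurses (SE 0.0524; adjusted p = 0.00155, 0.000712 and 0.00101). Its gene level overlapped between defenders (82.3 ± 2.40 CPM) and newly emerged workers (77.6 ± 12.9 CPM), with a log2 fold change of 0.08 (edgeR adjusted p = 0.649). It was lower at 59.9 ± 2.74 CPM in foragers and 60.4 ± 8.44 CPM in nurses (SD, n = 3 each), with log2 fold changes of -0.37 and -0.36 (edgeR adjusted p = 0.0288 and 0.0385). Neither call held with only the 2 groups compared in the fit (adjusted p = 0.0657 and 0.107) or with upper-quartile factors (adjusted p = 0.122 and 0.108). The call in foragers was also lost without forager library 1 or 3 or newly emerged library 1 or 2 (adjusted p = 0.0592 to 0.15), and that in nurses without nurse library 2 or 3 or newly emerged library 1 or 2 (adjusted p = 0.0572 to 0.176).

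The 152-base intron of the noncoding LOC100578134 was retained at 0.519, 0.464 and 0.45 in defenders, 0.324, 0.363 and 0.394 in foragers, 0.382, 0.525 and 0.529 in nurses, and 0.627, 0.665 and 0.662 in newly emerged workers. Again the newly emerged libraries lay above the other 9, and foragers lay lowest by their mean. The difference was -0.174 (adjusted p = 0.00719) in defenders, -0.291 (adjusted p = 0.000447) in foragers and -0.173 (adjusted p = 0.00759) in nurses. Its RNA averaged 113 ± 5.71 CPM in defenders and 67.1 ± 6.97 CPM in newly emerged workers, a log2 fold change of 0.75 (SE 0.15, edgeR adjusted p = 0.00178).

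Dnmt1a encodes the DNA methyltransferase that copies methylation marks to the new strand after replication. Its 161-base intron was retained at 0.725, 0.6 and 0.802 in defenders, 0.607, 0.61 and 0.81 in foragers, 0.627, 0.571 and 0.571 in nurses, and 0.869, 0.927 and 0.875 in newly emerged workers. Most Dnmt1a transcripts kept this intron in every library, and the newly emerged ones lay above all others. The difference from newly emerged workers was -0.215 ± 0.0633 in foragers (SE, adjusted p = 0.0111) and -0.301 in nurses (adjusted p = 0.0026). In defenders it was -0.181 (adjusted p = 0.0247), which did not pass without defender library 2 (-0.127, adjusted p = 0.0998) or newly emerged library 2 (-0.163, adjusted p = 0.0724). Dnmt1a counted 9.27, 13.0 and 13.5 CPM in defenders, 9.3, 8.61 and 11.5 in foragers, 10.8, 9.65 and 7.9 in nurses, and 6.45, 7.11 and 7.97 in newly emerged workers. Defenders lay above newly emerged workers (log2 fold change 0.73, SE 0.17, edgeR adjusted p = 0.00596), while nurses overlapped them (0.40, adjusted p = 0.0865).

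The intron with the widest spread was one of 163 bases in the noncoding LOC113218978. It was retained at 0.4, 0.167 and 0.143 in defenders, 0.739, 0.765 and 0.6 in foragers, 0.259, 0.429 and 0.294 in nurses, and 0, 0.214 and 0.5 in newly emerged workers. The 3 forager libraries stood above the other 9, an order found in this event by looking at its values. The difference of foragers from newly emerged workers was 0.463 ± 0.113 (SE, adjusted p = 0.00469); those from nurses (0.374, adjusted p = 0.0575) and of defenders from foragers (-0.465, adjusted p = 0.2) did not pass. The RNA was sparse, 63 to 154 counts a library, and its level did not pass in any comparison.

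The 70-base intron of LOC100576683 was retained at 0.595, 0.261 and 0.746 in defenders, 0.37, 0.314 and 0.164 in foragers, 0.32, 0.15 and 0.683 in nurses, and 0.602, 0.788 and 0.733 in newly emerged workers. Foragers lay below newly emerged workers by 0.425 (difference -0.425, adjusted p = 0.0192), but not without forager library 3 (-0.366, adjusted p = 0.0633) or newly emerged library 2 (-0.385, adjusted p = 0.0614). The gene fell in all 3 groups, to 7.03 ± 0.592 CPM in defenders, 7.03 ± 0.423 in foragers and 7.81 ± 0.842 in nurses, against 12.5 ± 1.23 in newly emerged workers (edgeR adjusted p = 0.000179, 0.000154 and 0.000951).

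In LOC410282 the intron was least retained in newly emerged workers. This 72-base intron was retained at 0.368, 0.466 and 0.699 in defenders, 0.368, 0.466 and 0.608 in foragers, 1, 0.368 and 0.244 in nurses, and 0.199, 0.08 and 0.199 in newly emerged workers. All 9 other libraries lay above the newly emerged ones, yet no difference passed with all 12 libraries (adjusted p = 0.0702, 0.0911 and 0.0597), and the nurse libraries spread over most of the range. The difference of nurses passed without nurse library 2 or 3 (0.463 and 0.525; adjusted p = 0.0487 and 0.0194). The gene fell to 5.05 ± 1.28 CPM in defenders and 4.95 ± 1.06 in foragers, against 10.4 ± 0.956 in newly emerged workers (on the log2 scale, fold changes -1.04 and -1.08, edgeR adjusted p = 0.00911 and 0.00574). The 113-base intron of LOC551460 was retained at 0.333, 0.826 and 0.586 in defenders, 0.231, 0.808 and 0.391 in foragers, 0.643, 1 and 0.875 in nurses, and 0.273, 0.474 and 0.615 in newly emerged workers. By their means nurses lay above newly emerged workers (0.385), and no comparison passed with all 12 libraries on the untransformed scale and no replicate block (adjusted p = 0.0555 for nurses). The difference of nurses passed with only the 2 groups in the fit (adjusted p = 0.0262), on a logit scale (adjusted p = 0.0473), and without newly emerged library 3 (0.466, adjusted p = 0.049) or nurse library 1 (0.484, adjusted p = 0.0389).

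**Figure D2:**
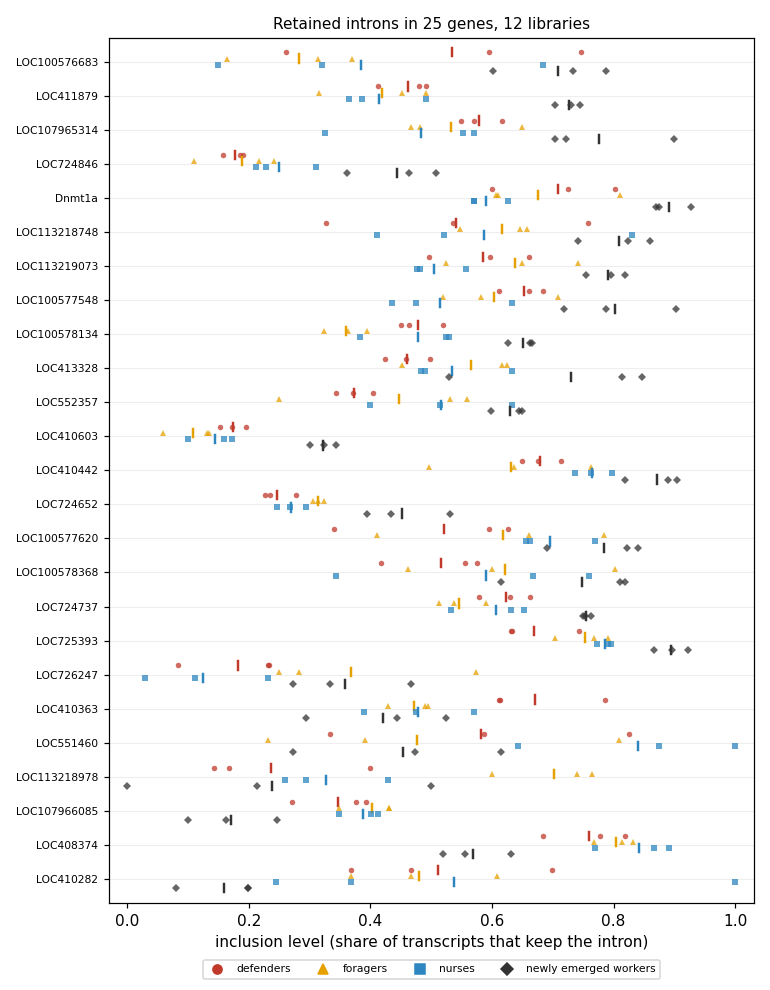
Inclusion level (x axis) of the retained intron in each of 25 genes, a point for each of 12 libraries and a bar for each group mean, sorted by how far newly emerged workers exceed the others. Newly emerged workers lie to the right in most rows, and to the left in LOC410282, LOC408374 and LOC107966085.

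Among the alternative acceptors with the widest ranges, Burs, TpnCIIb and nanos used the longer exon least in newly emerged workers by their means. Burs encodes a subunit of bursicon, the hormone that drives tanning and hardening of the cuticle after an insect emerges. Its longer exon, with 21 more bases, was used at 0.863, 0.851 and 0.83 in defenders, 0.906, 0.836 and 0.734 in foragers, 0.799, 0.898 and 0.846 in nurses, and 0.54, 0.623 and 0.492 in newly emerged workers. No newly emerged library reached the others from below. The differences were 0.296 in defenders, 0.274 in foragers and 0.296 in nurses (SE 0.0514; adjusted p = 0.000968, 0.00102 and 0.00125). Burs itself was at 4.99 ± 0.530 CPM in defenders, 3.92 ± 0.368 in foragers, 3.59 ± 0.472 in nurses and 4.32 ± 0.770 in newly emerged workers. It passed in no comparison in edgeR (test of any difference, edgeR adjusted p = 0.102). DESeq2 called it higher in defenders than in nurses (log2 fold change 0.476, DESeq2 adjusted p = 0.0396).

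TpnCIIb encodes a troponin C, the calcium sensor of muscle. Its longer exon, with 27 more bases, was used at 0.486, 0.344 and 0.177 in defenders, 0.542, 0.199 and 0.703 in foragers, 0.099, 0.059 and 0.218 in nurses, and 0.061, 0.073 and 0.115 in newly emerged workers. Defenders and foragers lay above newly emerged workers, and the nurse libraries overlapped them. The difference passed in foragers (0.398 ± 0.113, SE, adjusted p = 0.00941) and not in defenders (0.253, adjusted p = 0.0621) or nurses (0.0423, adjusted p = 0.736). The gene was measured at 2.21, 2.1 and 3.3 CPM in defenders, 2.18, 3.16 and 2.8 in foragers, 4.78, 6.12 and 4.89 in nurses, and 9.38, 8.84 and 11.3 in newly emerged workers, so nurses lay above defenders and foragers and below newly emerged workers without overlap. Its log2 fold changes against newly emerged workers were -1.96 in defenders, -1.86 in foragers and -0.91 in nurses (edgeR adjusted p = 1.52e-05, 2.02e-05 and 0.00377). The muscle markers found, TpnCIIIa and TpnT, summed to 785 to 1030 CPM in defenders, 709 to 903 in foragers, 742 to 1130 in nurses and 1720 to 1980 in newly emerged workers; their part in this result was not tested.

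The gene nanos encodes an RNA-binding repressor of translation known from the germline of Drosophila. Its longer exon, with 57 more bases, was used at 0.755, 0.771 and 0.755 in defenders, 0.786, 0.827 and 0.896 in foragers, 0.864, 0.553 and 0.842 in nurses, and 0.471, 0.586 and 0.567 in newly emerged workers. Only nurse library 2 reached the newly emerged range. Foragers differed from newly emerged workers by 0.295 ± 0.0732 (SE, adjusted p = 0.00497). The differences of defenders and nurses also passed with all 12 libraries. That of defenders was lost without defender library 2 (0.214, adjusted p = 0.052) or newly emerged library 1 (0.184, adjusted p = 0.0725). That of nurses was lost with only the 2 groups in the fit (0.212, adjusted p = 0.0726). It was also lost without nurse library 1 or 3 or newly emerged library 1 (adjusted p = 0.0851 to 0.098). The level of nanos was 197 ± 21.9 CPM in defenders, 190 ± 30.0 in foragers, 218 ± 16.7 in nurses and 142 ± 12.2 in newly emerged workers, and the rise in nurses had a log2 fold change of 0.62 (SE 0.13, edgeR adjusted p = 0.00235).

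**Figure D3:**
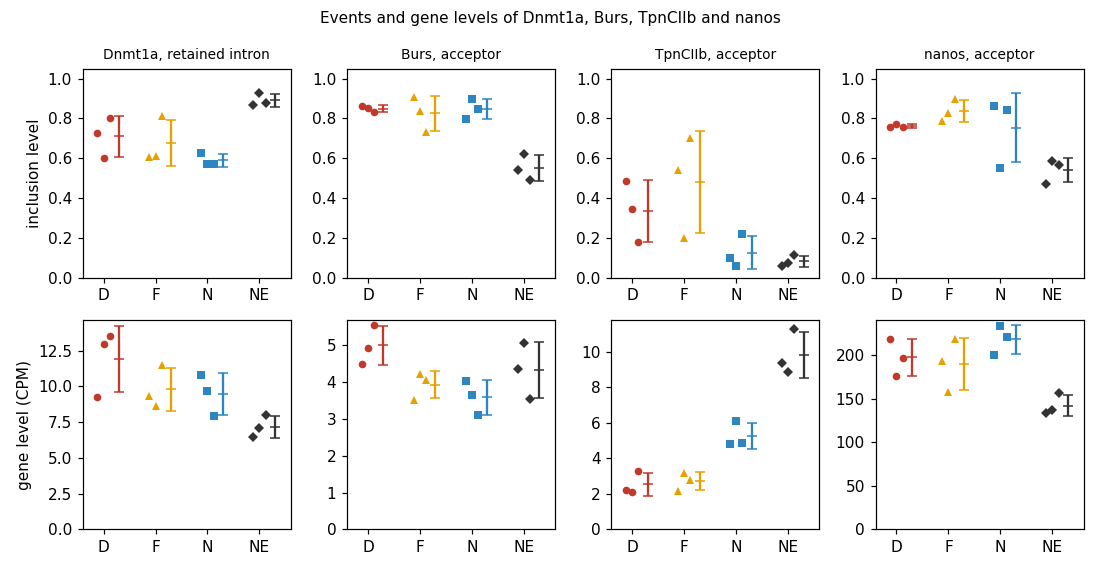
Inclusion level (top row) and gene level in CPM (bottom row) of Dnmt1a, Burs, TpnCIIb and nanos in defenders (D), foragers (F), nurses (N) and newly emerged workers (NE). Points are libraries and bars the mean ± SD (n = 3); newly emerged workers lie highest in inclusion for Dnmt1a and lowest for Burs.

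In LOC551628 the acceptor event came with a large change in level. Its exon with 30 more bases was used at 0.444, 0.507 and 0.538 in defenders, 0.47, 0.468 and 0.47 in foragers, 0.394, 0.429 and 0.429 in nurses, and 0.272, 0.233 and 0.292 in newly emerged workers. The newly emerged libraries lay below all others, with differences of 0.231 in defenders, 0.204 in foragers and 0.152 in nurses (SE 0.0367; adjusted p = 0.000572, 0.000887 and 0.00493). Its gene fell to 218 ± 17.4 CPM in defenders, 266 ± 31.8 in foragers and 306 ± 23.5 in nurses, against 579 ± 11.2 in newly emerged workers (on the log2 scale, fold changes -1.41, -1.12 and -0.92; edgeR adjusted p = 8.77e-07, 4.75e-06 and 3.9e-05).

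The noncoding LOC113218581 used an exon with 137 more bases at 0.591, 0.467 and 0.525 in defenders, 0.5, 0.42 and 0.404 in foragers, 0.615, 0.587 and 0.689 in nurses, and 0.846, 0.882 and 0.651 in newly emerged workers. Defenders and foragers lay below newly emerged workers (-0.265 and -0.352, SE 0.0620, adjusted p = 0.00407 and 0.000827), and nurses overlapped them. The difference of nurses also passed with all 12 libraries, but not with only the 2 groups in the fit (-0.163, adjusted p = 0.076). LOC113218581 also lost this call without nurse library 1 or 2 or newly emerged library 1 or 2 (adjusted p = 0.0869 to 0.145). Its level was higher in all 3 groups, 12.2 ± 0.431 CPM in defenders, 11.2 ± 1.39 in foragers and 13.0 ± 0.869 in nurses, against 7.51 ± 1.13 in newly emerged workers (on the log2 scale, fold changes 0.70, 0.58 and 0.79; edgeR adjusted p = 0.00113, 0.00301 and 0.000586).

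A pair of acceptors had nurses at the low end. The exon of LOC550989 with 14 more bases was used at 0.788, 0.751 and 0.88 in defenders, 0.687, 0.695 and 0.913 in foragers, 0.447, 0.725 and 0.58 in nurses, and 0.778, 0.806 and 0.966 in newly emerged workers. Nurses lay below newly emerged workers (-0.266, adjusted p = 0.0169), but the call was lost without newly emerged library 3 (-0.208, adjusted p = 0.0676) or nurse library 1 (-0.198, adjusted p = 0.0661). The exon of LOC100579026 with 39 more bases was used at 0.167, 0.018 and 0.683 in defenders, 0.356, 0.167 and 0.324 in foragers, 0.126, 0 and 0.279 in nurses, and 0.502, 0.265 and 0.59 in newly emerged workers. The groups overlapped through single libraries, and no comparison passed with all 12 libraries and no replicate block (nurses against newly emerged workers -0.317, adjusted p = 0.0807); that difference passed with only the 2 groups in the fit (adjusted p = 0.033).

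The largest range of all 104 events, 0.584, belonged to a donor of LOC408916 that adds 12 bases. The longer exon was used at 0.728, 0.811 and 0.921 in defenders, 0.472, 0.728 and 0.668 in foragers, 0.781, 0.573 and 0.598 in nurses, and 0.32, 0.389 and 0 in newly emerged workers. All newly emerged libraries lay below the others. The differences were 0.584 in defenders, 0.386 in foragers and 0.414 in nurses (SE 0.105; adjusted p = 0.00112, 0.00791 and 0.00617). The gene's level was 41.0 ± 2.65 CPM in defenders, 37.4 ± 2.03 in foragers, 43.4 ± 4.05 in nurses and 41.0 ± 1.56 in newly emerged workers, and no comparison of it passed (test of any difference, edgeR adjusted p = 0.225).

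The donor event of LOC408548 lay near full inclusion in defenders and foragers. Its exon with 42 more bases was used at 0.926, 0.947 and 0.959 in defenders, 0.932, 0.97 and 0.959 in foragers, 0.83, 0.835 and 0.88 in nurses, and 0.725, 0.758 and 0.717 in newly emerged workers. Nurses lay between newly emerged workers and the other groups without overlap on either side. Against newly emerged workers the difference was 0.211 in defenders, 0.220 in foragers and 0.115 in nurses (SE 0.0338; adjusted p = 0.000601, 0.000402 and 0.0123), whereas nurses did not differ past the threshold from foragers (0.105, adjusted p = 0.0657) or defenders (0.0957, adjusted p = 0.123). The gene was at 385 ± 14.6 CPM in defenders and 349 ± 90.3 in foragers, against 606 ± 20.5 in newly emerged workers (on the log2 scale, fold changes -0.65 and -0.80, edgeR adjusted p = 0.00511 and 0.00114).

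In LOC552100, an exon with 21 more bases was used at 0.555, 0.506 and 0.492 in defenders, 0.432, 0.478 and 0.463 in foragers, 0.487, 0.564 and 0.547 in nurses, and 0.268, 0.299 and 0.342 in newly emerged workers. All newly emerged libraries lay lower (differences 0.215, 0.155 and 0.230, SE 0.0384; adjusted p = 0.00104, 0.00487 and 0.00098). Here gene and longer exon were both higher outside the newly emerged group: 88.6 ± 1.20 CPM in defenders, 107 ± 5.63 in foragers and 83.9 ± 5.15 in nurses, against 41.4 ± 4.86 in newly emerged workers (on the log2 scale, fold changes 1.10, 1.37 and 1.02; edgeR adjusted p = 2.6e-06, 4.1e-07 and 8.19e-06).

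LOC724311 used an exon with 216 more bases at 0.88, 0.859 and 0.918 in defenders, 0.848, 0.917 and 0.93 in foragers, 0.907, 0.902 and 0.873 in nurses, and 0.728, 0.644 and 0.703 in newly emerged workers. The newly emerged libraries lay below all others (differences 0.194, 0.207 and 0.202, SE 0.0389, adjusted p = 0.00166, 0.00102 and 0.00161). The gene was at 190 ± 7.20, 186 ± 4.23, 178 ± 14.9 and 168 ± 11.7 CPM in defenders, foragers, nurses and newly emerged workers. It passed in no comparison with the main scaling. With upper-quartile factors it passed in defenders against newly emerged workers (log2 fold change 0.225, edgeR adjusted p = 0.0418). LOC726541 went the other way: its exon with 18 more bases was used at 0.381, 0.377 and 0.393 in defenders, 0.448, 0.366 and 0.339 in foragers, 0.373, 0.296 and 0.32 in nurses, and 0.564, 0.607 and 0.616 in newly emerged workers. The newly emerged libraries lay above all others (differences -0.212, -0.211 and -0.266, SE 0.0398; adjusted p = 0.00129, 0.00102 and 0.000624). This gene fell to 44.4 ± 2.26 CPM in foragers and 47.9 ± 11.2 in nurses, against 81.4 ± 15.7 in newly emerged workers (on the log2 scale, fold changes -0.88 and -0.77; edgeR adjusted p = 0.00127 and 0.00398). In defenders it was at 74.1 ± 3.01 CPM, overlapping the newly emerged libraries.

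The exon of LOC552265 with 227 more bases was used at 0.125, 0.333 and 0.167 in defenders, 0.385, 0.484 and 0.364 in foragers, 0.455, 0.4 and 0.36 in nurses, and 0.6, 0.556 and 0.548 in newly emerged workers. No defender library reached any library of another group, and the difference from newly emerged workers was -0.360 ± 0.0565 (SE, adjusted p = 0.00055). The differences of nurses and foragers from newly emerged workers also passed with all 12 libraries. Each was lost on a logit scale (adjusted p = 0.0729 and 0.0762) and without newly emerged library 1 or 2 (adjusted p = 0.0519 to 0.0765). That of nurses was also lost without nurse library 2 or 3, and that of foragers without forager library 1 or 3. Against foragers (-0.203, adjusted p = 0.205) and nurses (-0.197, adjusted p = 0.0667) defenders did not pass. Its gene was at 62.4 ± 3.92 CPM in defenders and 71.7 ± 4.24 CPM in newly emerged workers (on the log2 scale, fold change -0.20, edgeR adjusted p = 0.0741). The gene passed there in DESeq2 (-0.21, DESeq2 adjusted p = 0.0356) and with only the 2 groups in the fit (-0.212, edgeR adjusted p = 0.0498).

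LOC551799 used an exon with 279 more bases at 0.75, 0.826 and 0.862 in defenders, 0.5, 0.941 and 0.814 in foragers, 0.46, 0.697 and 0.538 in nurses, and 0.362, 0.333 and 0.49 in newly emerged workers. Defenders and foragers lay above newly emerged workers (0.418 and 0.357, SE 0.100; adjusted p = 0.00484 and 0.00927), and nurses overlapped them. Its gene had log2 fold changes of 0.67 in defenders and 0.72 in nurses (edgeR adjusted p = 0.00684 and 0.00469). The noncoding LOC102655020 used an exon with 319 more bases at 0.5, 0.081 and 0.364 in defenders, 0.6, 0.545 and 0.333 in foragers, 1, 0.286 and 0.091 in nurses, and 0.091, 0.111 and 0.158 in newly emerged workers. Its nurse libraries covered nearly the whole scale and no comparison passed with all 12 libraries; the difference of foragers from newly emerged workers, 0.373, passed with only those 2 groups in the fit (adjusted p = 0.00532). The gene had 246 to 607 counts a library.

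**Figure D4:**
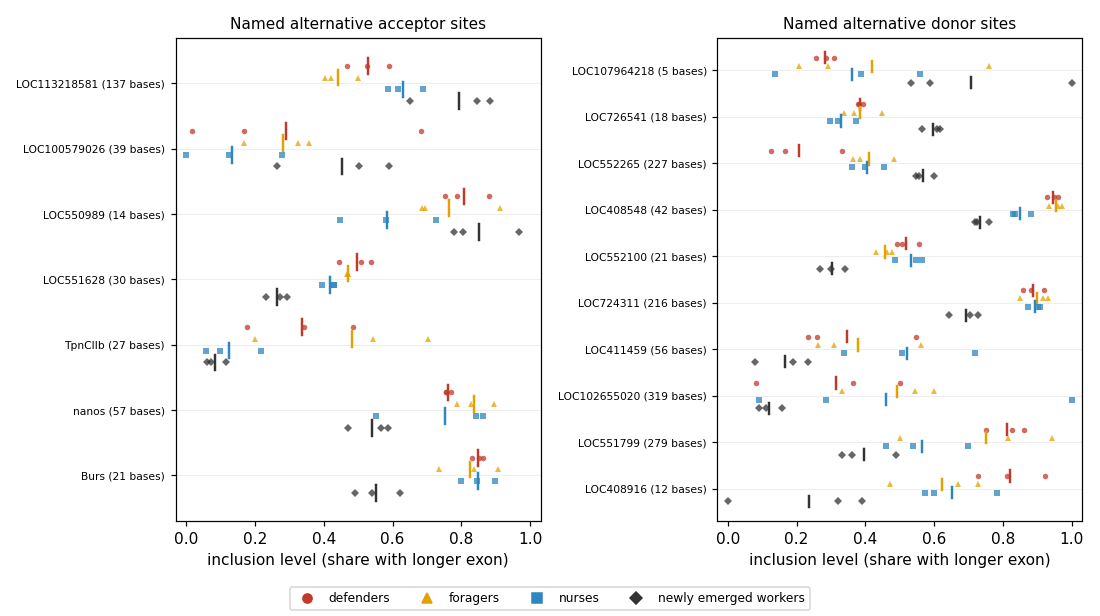
Inclusion level (x axis) of the 7 named acceptor and 10 named donor events, a point for each library and a bar for each group mean; the bases added by the longer exon stand beside the gene. Newly emerged workers lie to the left of all others in LOC408916 and Burs and to the right in LOC726541 and LOC552265.

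Several genes carried more than 1 event, and events that overlap share reads, so they are not separate evidence. The noncoding LOC107964218 had a row of 3 donors. Choosing the middle over the nearest added 5 bases to the exon, which was used at 0.257, 0.286 and 0.308 in defenders, 0.29, 0.206 and 0.76 in foragers, 0.559, 0.137 and 0.388 in nurses, and 1, 0.588 and 0.533 in newly emerged workers. Choosing the farthest over the middle added 59 more, used at 0.957, 0.863 and 0.811 in defenders, 0.877, 0.917 and 0.733 in foragers, 0.7, 0.946 and 0.837 in nurses, and 0.586, 0.386 and 0.654 in newly emerged workers. The 2 choices ran in opposite directions. For the 59 bases the differences of defenders and foragers were 0.335 and 0.300 (SE 0.0827, adjusted p = 0.00556 and 0.00843). That of nurses also passed with all 12 libraries, but not without newly emerged library 2 (0.208, adjusted p = 0.05). For the 5 bases the difference of defenders was -0.423 (adjusted p = 0.0321), which did not pass without defender library 1, 2 or 3 (-0.41, -0.424 and -0.436; adjusted p = 0.0741, 0.0685 and 0.06), without newly emerged library 1 (-0.277, adjusted p = 0.131) or on a logit scale. The RNA rose to 6.94 ± 0.656 CPM in defenders, 6.27 ± 0.743 in foragers and 5.81 ± 0.762 in nurses, against 2.29 ± 0.214 in newly emerged workers (on the log2 scale, fold changes 1.6, 1.45 and 1.34; edgeR adjusted p = 5.18e-06, 1.01e-05 and 3.18e-05).

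LOC411459 had a pair of nested donors that moved the same way. The one adding 56 bases was used at 0.259, 0.548 and 0.234 in defenders, 0.31, 0.261 and 0.562 in foragers, 0.719, 0.339 and 0.506 in nurses, and 0.232, 0.08 and 0.189 in newly emerged workers. Nurses lay above newly emerged workers (0.354, adjusted p = 0.0184), but not past the threshold without newly emerged library 2 (0.311, adjusted p = 0.0653) or nurse library 1 (0.256, adjusted p = 0.0718). The donor that adds 223 bases from the same start gave means of 0.333 ± 0.151, 0.350 ± 0.242, 0.513 ± 0.248 and 0.181 ± 0.0535 in defenders, foragers, nurses and newly emerged workers.

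LOC410018 had 3 donor events, and 2 of them lengthen the same exon to donors 4 bases apart. All were used most in newly emerged workers and least in nurses. The one adding 80 bases was used at 0.625, 0.551 and 0.601 in defenders, 0.674, 0.766 and 0.571 in foragers, 0.526, 0.469 and 0.542 in nurses, and 0.753, 0.777 and 0.836 in newly emerged workers. Defenders and nurses lay below newly emerged workers without overlap (-0.196 and -0.276, SE 0.0510; adjusted p = 0.00659 and 0.00155). The donor adding 76 bases, its neighbour, had means of 0.516 ± 0.0662, 0.549 ± 0.127, 0.424 ± 0.0556 and 0.705 ± 0.0494 in defenders, foragers, nurses and newly emerged workers, and that adding 41 bases had, in the same order, 0.617 ± 0.0650, 0.641 ± 0.0338, 0.523 ± 0.0453 and 0.757 ± 0.0437.

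In LOC410363, an intron of 1484 bases and the acceptor that ends it were both listed. The intron was retained at 0.786, 0.611 and 0.613 in defenders, 0.49, 0.495 and 0.429 in foragers, 0.571, 0.39 and 0.475 in nurses, and 0.294, 0.444 and 0.524 in newly emerged workers. Defenders lay above all other libraries, and their difference from newly emerged workers was 0.249 ± 0.0699 (SE, adjusted p = 0.00993). The longer exon of the acceptor, with 45 more bases, was used at 0.58, 0.637 and 0.639 in defenders, 0.642, 0.746 and 0.766 in foragers, 0.691, 0.841 and 0.705 in nurses, and 0.834, 0.929 and 0.728 in newly emerged workers. Defenders lay below all other libraries there (-0.212 ± 0.0599, SE, adjusted p = 0.0101). Against foragers and nurses neither event passed in defenders (adjusted p = 0.133 to 0.516).

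The intron of 1057 bases in LOC100578368 holds an alternative donor that adds 367 bases to the exon before it. The intron was retained at 0.556, 0.576 and 0.418 in defenders, 0.803, 0.462 and 0.6 in foragers, 0.759, 0.344 and 0.667 in nurses, and 0.818, 0.615 and 0.81 in newly emerged workers. No comparison of it passed with all 12 libraries and no replicate block, and that of defenders with newly emerged workers did with only the 2 groups in the fit (adjusted p = 0.0207). The longer exon was used at 0.111, 0.233 and 0.238 in defenders, 0.52, 0.188 and 0.278 in foragers, 0.333, 0.216 and 0.12 in nurses, and 0.7, 0.474 and 0.429 in newly emerged workers. Both were highest in newly emerged workers by their means, and for the exon the difference of defenders passed (-0.340 ± 0.0948, SE, adjusted p = 0.00961). That of nurses also passed with all 12 libraries. It was lost without newly emerged library 1 (-0.228, adjusted p = 0.0596) or nurse library 3 (-0.26, adjusted p = 0.0534).

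Acceptors that lie 3 bases apart add or remove a single codon where they are translated. There were 3 of them, in LOC726280, LOC411646 and LOC409666. The longer exon of LOC726280 was used at 0.773 ± 0.204, 0.870 ± 0.0426, 0.625 ± 0.0875 and 0.888 ± 0.0364 in defenders, foragers, nurses and newly emerged workers, that of LOC411646 at 0.702 ± 0.218, 0.908 ± 0.0407, 0.767 ± 0.210 and 0.661 ± 0.0325, and that of LOC409666 at 0.789 ± 0.118, 0.627 ± 0.0975, 0.779 ± 0.0245 and 0.844 ± 0.121 (SD, n = 3 each). The longer form led in every group, and the order of the groups differed between the genes. In LOC411646 the gene's level stood out in a single library: 70.5 CPM in forager library 2, against 13.0 to 16.0 CPM in the other 11.

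Among defenders, foragers and nurses few events passed. In foragers against nurses 3 events passed, all higher in foragers, beside 11.8% of all events (4.89% higher and 6.92% lower), and with only those 6 libraries in the fit none did. The donor of LOC412187 that adds 12 bases was used at 0.417, 0.211 and 0.296 in foragers and 0, 0.13 and 0.075 in nurses (0.240, adjusted p = 0.0197). That of LOC411812, adding 16 bases, was used at 0.547, 0.623 and 0.637 in foragers and 0.318, 0.4 and 0.356 in nurses (0.244, adjusted p = 0.0294). The acceptor of LOC411229, adding 88 bases, was used at 0.91, 0.856 and 1 in foragers and 0.803, 0.615 and 0.615 in nurses (0.244, adjusted p = 0.0475). No forager library overlapped a nurse library in these 3.

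These calls lay close to the threshold, and the differences kept their direction where the call was lost. That of LOC412187 was lost without forager library 1 or 3 or nurse library 1 (differences 0.185, 0.246 and 0.206; adjusted p = 0.0683, 0.0521 and 0.062) and with only the 2 groups in the fit (adjusted p = 0.0752). That of LOC411812 was lost without any one of the forager or nurse libraries (0.224 to 0.272; adjusted p = 0.055 to 0.0842), and that of LOC411229 without forager library 1 or 3 or nurse library 2 or 3 (0.205 to 0.25; adjusted p = 0.103 to 0.138). With all forager and nurse libraries kept, both were also lost on a logit scale (adjusted p = 0.0695 for LOC411812 and 0.0686 for LOC411229) and with only the 2 groups in the fit (0.0633 and 0.0814).

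In defenders against nurses no event passed in limma (2.44% of all events did, 1.22% higher and 1.22% lower), and 18 of 104 had an unadjusted p under 0.05, beside 117 of 491 (23.8%). In defenders against foragers none passed either (0.204% of all events), and 14 of 104 had an unadjusted p under 0.05, beside 60 of 491 (12.2%). The libraries did not overlap in 24 of the 104 events for foragers against nurses (23.1%, beside 29.1% of all events), in 29 for defenders against nurses (27.9%, beside 29.9%) and in 20 for defenders against foragers (19.2%, beside 16.7%).

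The counts of the genes come from the same libraries as the inclusion levels, so they are not a separate measurement. All 94 genes passed the filter on low counts. Of them, 47 passed in defenders against newly emerged workers, 24 higher and 23 lower (34.4% of 11271 genes tested passed, 17.7% higher and 16.7% lower). In foragers against newly emerged workers 60 passed, 23 higher and 37 lower (47.9% of tested genes, 23.6% and 24.4%), and in nurses 57, 23 higher and 34 lower (39.6%, 18.9% and 20.7%). DESeq2 called 53, 62 and 59 of the 94 genes in the same 3 comparisons, beside 35.6%, 49.5% and 41.0% of the genes it tested. The median log2 fold change over the 94 genes was -0.0074 in defenders, -0.107 in foragers and -0.0735 in nurses, beside -0.00127, 0.00908 and 0.0183 over all tested genes; with upper-quartile factors the 94 genes' medians were 0.0383, 0.0408 and 0.0497. The 238 other genes with a splice event passed in 43.3%, 57.1% and 49.2%. The genes were counted more deeply than most, with a median mean count of 2916 against 2019 over the genes tested, and 58 of 94 above that median. With upper-quartile factors the median over all genes of the log2 fold change against newly emerged workers was 0.155 in foragers and 0.142 in nurses, in place of 0.00908 and 0.0183, and the split was 33 higher and 30 lower in foragers and 31 and 26 in nurses, while in defenders it was 26 and 20. All tested genes then split into 2211 higher and 1630 lower in defenders, 3708 and 1983 in foragers and 3081 and 1742 in nurses.

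In foragers against nurses 7 genes passed (3 higher, 4 lower; 4.01% of tested genes, 1.91% higher and 2.1% lower, and 7.98% of the other genes with events) and in defenders against nurses 8 (6 higher, 2 lower; 7.74%, 4.63% higher and 3.11% lower, and 14.7% of the other genes with events). With upper-quartile factors the split was 4 and 3 in foragers and 6 and 4 in defenders. All tested genes then split into 224 higher and 199 lower in foragers and 404 and 579 in defenders. With the main scaling the same splits were 215 and 237 in foragers and 522 and 350 in defenders. The counts of 7 and 8 genes moved when single libraries were left out. That in foragers was 1 without forager library 1 or nurse library 2, 3 without forager library 2 and 4 without nurse library 1. The count in defenders against nurses was 4, 0 and 1 without defender library 1, 2 or 3, 16 without nurse library 1, 1 without nurse library 2 and 5 without nurse library 3. In defenders against foragers none passed in edgeR (0.0% of tested genes) and DESeq2 called 16 (12.9% of the genes it tested). Same-numbered defender and forager libraries deviated together in their gene counts, and edgeR called 11 of the 94 genes with the library number as a block (5.92% of tested genes) and 12 with only those 6 libraries in the fit (7.83%). In foragers and defenders against nurses DESeq2 called 16 and 17, beside 7.61% and 16.5% of the genes it tested. In the test of any difference, 66 of 94 passed (48.5% of tested genes and 63.9% of the 238 other genes with events), and 23 passed neither there nor in any pair.

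Among the 10 other genes with the smallest p in the test of any difference was LOC410371, which has an alternative acceptor. It counted 877, 761 and 740 CPM in defenders, 744, 698 and 654 in foragers, 812, 785 and 683 in nurses, and 2710, 2750 and 2130 in newly emerged workers. Newly emerged workers lay far above (log2 fold changes -1.67, -1.86 and -1.73; edgeR adjusted p = 7.87e-07, 3.19e-07 and 1.16e-06). Its acceptor adding 118 bases gave 0.520 ± 0.0455 in defenders and 0.756 ± 0.0630 in newly emerged workers (-0.236, adjusted p = 0.00129).

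Of the other 9 genes chosen in this way, 4 more were highest in newly emerged workers. LOC724913 fell to 27.3 ± 1.15 CPM in defenders, 22.4 ± 2.31 in foragers and 22.8 ± 1.26 in nurses, against 50.0 ± 4.5 in newly emerged workers. LOC727232 fell to 95.8 ± 4.75, 77.3 ± 10.6 and 119 ± 7.87 CPM in those 3 groups against 179 ± 9.85, LOC100578317 to 15.9 ± 3.23, 11.6 ± 3.24 and 18.1 ± 0.848 against 34.2 ± 1.31, and LOC409238 to 23.4 ± 0.958, 20.8 ± 1.32 and 25.1 ± 2.63 against 37.2 ± 3.81. All 12 of these differences passed in edgeR (adjusted p = 2.6e-06 to 0.00251).

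The remaining 5 were lowest in newly emerged workers. The noncoding LOC102654792 was at 15.1 ± 2.16 CPM in defenders, 13.9 ± 2.18 in foragers and 12.1 ± 1.45 in nurses, against 5.85 ± 0.353 in newly emerged workers, and the noncoding LOC107965314 at 6.89 ± 0.790, 5.94 ± 0.2 and 4.90 ± 1.31 against 2.18 ± 0.258. LOC726247 was at 4.47 ± 0.368, 4.33 ± 1.07 and 3.57 ± 0.244 CPM against 1.49 ± 0.0713, and LOC410442 at 16.8 ± 2.13, 15.2 ± 1.32 and 10.5 ± 0.946 against 6.74 ± 0.680. LOC409666, one of the genes with acceptors 3 bases apart, was at 369 ± 2.48 CPM in defenders, 378 ± 34.3 in foragers, 263 ± 28.2 in nurses and 228 ± 21.7 in newly emerged workers. Defenders and foragers passed against newly emerged workers in all 5 (adjusted p = 7.09e-06 to 0.000262); nurses passed in all but LOC409666 (adjusted p = 0.137 there, 0.000176 to 0.00174 in the others).

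Level and retention can be set side by side for the introns. Of the 14 introns with lower retention in defenders than in newly emerged workers, the gene was higher in 8, lower in 1 and without a call in 5, beside 17.7% higher and 16.7% lower of all genes tested. In foragers the gene was higher in 6, lower in 3 and without a call in 4 of 13 such introns, beside 23.6% and 24.4%, and in nurses in 6, 2 and 4 of 12, beside 18.9% and 20.7%. For acceptors and donors with lower inclusion, the gene was higher in 5, lower in 9 and without a call in 15 in defenders, in 5, 11 and 8 in foragers and in 5, 10 and 10 in nurses. Introns, acceptors and donors with higher inclusion than in newly emerged workers are left out here. These counts share the newly emerged libraries, and whether reads of a retained intron enter the count of its gene was not tested.

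**Figure D5:**
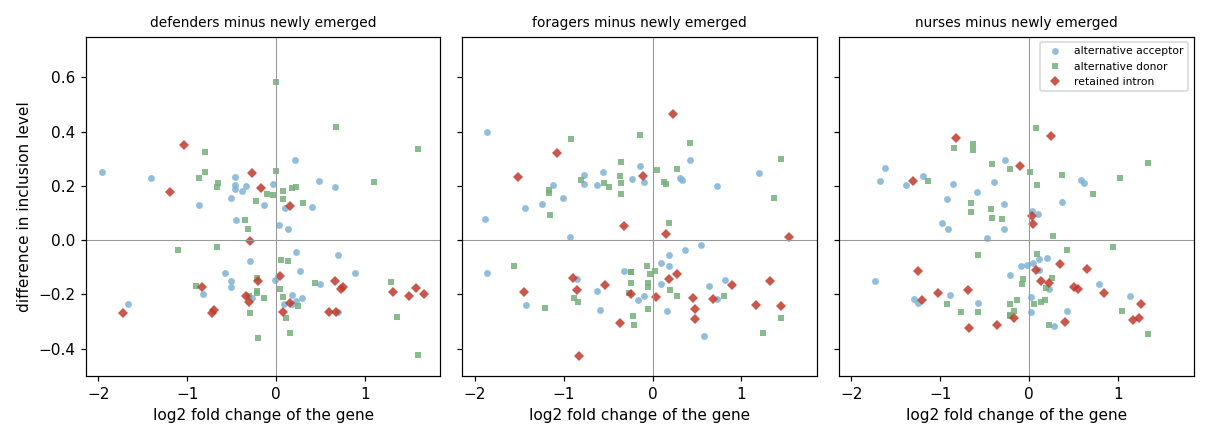
Difference in inclusion level (y axis) against the log2 fold change of the gene (x axis) for 104 events, each group minus newly emerged workers. Most retained introns (diamonds) lie below 0 on the y axis, on both sides of 0 on the x axis, and acceptors and donors lie on both sides of both axes.

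The within-group SD of an event had a median of 0.0725 (0.0214 to 0.224) over the 104 events. Across events it was larger where the gene had fewer counts (Spearman's rho -0.328, 104 events that share libraries, given as a description). Of 1248 values, 4 were at 0 and 8 at 1.

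Of possible splicing factors only tra2, Prpf3 and Fem were looked up, and others were not examined here. The gene tra2, a regulator of splice-site choice known for sex determination in Drosophila, was at 86.5 ± 1.23 CPM in defenders, 76.7 ± 1.49 in foragers and 87.4 ± 6.72 in nurses, against 64.7 ± 3.26 in newly emerged workers (on the log2 scale, fold changes 0.42, 0.25 and 0.43; edgeR adjusted p = 0.00104, 0.0185 and 0.000982). Prpf3, a protein of the U4/U6 particle of the spliceosome, was at 49.0 ± 1.39 CPM in defenders, 41.5 ± 9.45 in foragers, 44.1 ± 2.16 in nurses and 37.2 ± 1.20 in newly emerged workers, with a call in defenders (log2 fold change 0.40, adjusted p = 0.0379). Fem, named for the sex-determining gene feminizer, fell in foragers to 78.9 ± 8.49 CPM against 102 ± 7.86 in newly emerged workers (on the log2 scale, fold change -0.38, adjusted p = 0.0143). Their part in the inclusion levels was not tested.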

How the data were processed

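The 12 libraries of antennal RNA (4 groups of 3) come from a DNBSEQ platform, per the series' design text. The authors deposited raw counts per gene and, in 5 splicing tables, an inclusion level per event and library, which is a fraction with no read number. The sources used here name no aligner, event caller, genome build or counting rule; the labels' protocol fields describe a chromatin assay on human cells and were not used. Positions and sequences are not printed because no build is named; lengths come from the deposited exon ends.

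The members, gene lists and tests were chosen with earlier results of these data known. Groups come from the sample titles, and a library's number is the one after the group's name. The titles also carry a number after Rep, which conflicts with the number used in nurse library 1 and forager library 1 (Rep2 in both). Inclusion levels were fitted untransformed with limma 3.58.1 (robust eBayes) over 491 events, and counts with edgeR 4.0.16 (TMM, filterByExpr, robust quasi-likelihood) over 11271 genes, in R 4.3.3, each with 4 group means and 8 residual degrees of freedom. Calls are two-sided, at a Benjamini-Hochberg adjusted p under 0.05. CPM use TMM library sizes. Named events are, per kind, the 6 with the largest range of group means, then the smallest adjusted p, 25 in all; named genes are theirs and the 10 others with the smallest p of any difference. Some of the 9 genes with more than 1 event were added, as were the genes with acceptors 3 bases apart and the events called between foragers and nurses. The events of LOC107965814, LOC551208 and LOC552085 and the other event of LOC550989 are not described. Alternatives were DESeq2 1.42.0, other scalings, no filter, a logit scale, trended moderation, a range filter on events, only the 2 groups compared, a replicate block, an exact permutation test and each library left out. Deviations from the group means were compared between same-numbered libraries. Over gene counts all 3 pairs correlated above 0.1 in defenders with foragers (0.222 to 0.423), foragers with newly emerged workers (0.257 to 0.306) and defenders with newly emerged workers (0.176 to 0.342). The numbers may thus pair those libraries, but the main fits and their calls ignore any pairing. A replicate block was run only as an alternative. This pairing comes from the data, as the labels do not say what a number marks. In pairs with nurses at least 1 correlation was negative (-0.358 to 0.293), and over inclusion levels no comparison had all 3 above 0.1. Scripts were tested on simulated data, in which part of the changes put in were missed. In nurses against newly emerged workers, 51.5% of changed events were recovered at a difference of 0.2 and 7.46% at 0.1. Of changed genes 28.4% were recovered at a 1.5-fold change and 76.1% at a 2-fold change. A smaller share of genes and events was changed there than passed in the data. These rates therefore do not give the sensitivity of the fits to the data. Libraries held 66708813 to 119703929 counts; replicates of a group differed by more than counting noise. The values of 1 member are not reported here.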

Additional observations from a re-analysis of the deposited data

How the results depend on the processing

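The read numbers behind the inclusion levels are unknown, so their precision cannot be given. Without 1 library each, the events that passed numbered 53 to 63 in defenders, 56 to 64 in foragers and 54 to 62 in nurses against newly emerged workers, 0 to 6 in foragers against nurses, 0 in defenders against nurses and 0 to 1 in defenders against foragers. The genes that passed numbered 38 to 44, 50 to 64 and 43 to 52 in the first 3 comparisons, 1 to 6 in foragers against nurses, 0 to 16 in defenders against nurses and 0 in defenders against foragers. With only the 2 groups compared, 0 events and 0 genes passed in foragers against nurses, and 12 genes in defenders against foragers. DESeq2 called 16 genes in foragers against nurses, 17 in defenders against nurses and 16 in defenders against foragers. In inclusion levels, the deviations of same-numbered libraries correlated weakly, from -0.0900 to 0.116 (median 0.0616), 3 of 18 over 0.1. Between differently numbered libraries the correlations ran from -0.125 to 0.0816 (median -0.0272), 0 of 36 over 0.1. With a replicate block 11 genes passed in defenders against foragers (5.92% of tested genes) and 13 in defenders against nurses. For the latter no share over all tested genes is given here. The same block gave adjusted p = 0.0054 for LOC551460 and 0.0162 for LOC100579026 in nurses and 0.0357 for the intron of LOC100578368 in defenders against newly emerged workers, and 0.0528 for LOC411812 and 0.0708 for LOC411229 in foragers against nurses. Over the other alternatives, the counts against newly emerged workers were 67 to 76, 65 to 69 and 61 to 68 for events and 46 to 58, 54 to 63 and 50 to 59 for genes. No named event or gene changed direction where it had passed. The cause of these differences was not tested. With 3 libraries against 3, the exact permutation test cannot give a p under 0.1.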
